A study of Saccharomyces cerevisiae BY4741 with 238 samples.

Results

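The genes described here encode the RNA polymerase I and RNA polymerase III machinery of the budding yeast Saccharomyces cerevisiae. The list holds 40 genes for polymerase subunits and for the factors that bring these polymerases to their genes. A listed gene was analysed where its mean normalised value over 238 libraries was at least 10, which kept 32 of the 40 and stands beside 5015 of 6717 features in all. The 8 genes below that mean were RPA12 (9.70), RRN5 (8.34), RRN6 (7.98), UAF30 (5.56), RPC17 (mean of 5), RRN11 (3.17), RRN7 (3.06) and RRN10 (0.81). The lowest mean above it was 13.2, for RPC10. Thus RPA12, the RNA-cleavage subunit of polymerase I, RPC17, a stalk subunit of polymerase III, all of the core factor and most of the upstream activating factor were too low to be tested.

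RNA polymerase I (Pol I) makes the precursor of the large ribosomal RNAs, and RNA polymerase III (Pol III) makes transfer RNAs and the 5S ribosomal RNA. Growing yeast spends much of its transcription on these products, and both systems are known to be held back when TORC1 signalling falls. The subunits themselves come from messenger RNAs made by RNA polymerase II. Many of those genes carry upstream the PAC element, named for polymerases A and C (older names of Pol I and Pol III) and bound by the repressors Dot6 and Tod6, and the RRPE element, bound by Stb3. Poly(A)-selected libraries measure these messengers, not the ribosomal and transfer RNAs, so the values say nothing directly of polymerase activity.

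The cells were strain BY4741, a haploid laboratory strain, grown in rich YPD medium in microplate wells that held grids of drug doses. The drugs were cycloheximide (C), which blocks translation elongation, LiCl (L), a toxic salt, myriocin (M), which inhibits serine palmitoyltransferase, and rapamycin (R), which inhibits TORC1. Each of the 6 drug pairs had its own grid, called an experiment here and named by its letters, and cultures were diluted back repeatedly to hold density down before RNA was taken. The 11 drug-free libraries came from all 6 experiments, and their final optical density (OD600) ran from 0.55 to 1.44. Growth-matched libraries of single drugs grew at 0.35 to 0.66 of the drug-free rate. They comprised 10 with cycloheximide (0.0522 to 0.0764 µg/ml), 10 with LiCl (9235 to 15726 µg/ml), 11 with myriocin (0.349 to 0.510 µg/ml) and 11 with rapamycin (0.00396 to 0.00662 µg/ml). Another 5 libraries with myriocin alone (0.579 to 0.962 µg/ml), all of experiment LM, grew at 0.0358 to 0.331 of the drug-free rate and are called near-arrest. Weaker single doses gave 13 libraries with cycloheximide, 18 with LiCl, 9 with myriocin and 19 with rapamycin. The mixtures gave 22 (C+L), 20 (C+M), 19 (C+R), 26 (L+M), 18 (L+R) and 16 (M+R) libraries, each pair in 1 experiment. Libraries are single wells, and nothing in the labels says that wells of a group came from separate starter cultures, so p-values measure the spread between wells.

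LEU2, MET17 and URA3, deleted in this strain, were at the lowest value of the library in each of the 238 libraries. HIS3, also a mutated marker of this strain, averaged 16.6. The a-cell genes STE2, MFA1 and MFA2 averaged 122, 221 and 150, and the alpha-cell genes STE3, MF(ALPHA)1 and MF(ALPHA)2 averaged 1.26, 0.28 and 9.78. The median estimated depth was 568842 reads (range 64843 to 2017612). The 8 libraries under 0.25 of it are called shallow. The typical library therefore held few estimated reads of these genes, with medians of 19.7 for RPA190, 10.6 for RPC19 and 46.3 for TFC3. In bulk RNA, fewer cells of a kind and less RNA per cell cannot be told apart.

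Many of the listed genes, but not all, hold the PAC or the RRPE element upstream. The PAC element is named for these polymerases, so its share here describes the list and is no separate evidence. In the 300 bases before the start codon, searched on both strands, the PAC core GATGAG was present in 22 of the 40 listed genes (55%), against 19.1% of 6020 protein-coding genes. The RRPE core was present in 16 of 40 (40%), against 9.39%, and both were present in 15 of 40 (37.5%), against 4.43%. The following stretches, read from the R64 genome, are shown 5′ to 3′ on the gene's strand. They are those of 8 members with called changes below, all with the PAC core, and of TFC3. TFC3 was called lower with myriocin and holds neither motif in its 300 bases. Other called members without the PAC core are not shown, among them RPB8 and RPC10, which rose near arrest. Capitals mark the PAC core (CTCATC when it lies on the other strand) and the RRPE core.
RPA190, chrXV:960750-960840, plus strand: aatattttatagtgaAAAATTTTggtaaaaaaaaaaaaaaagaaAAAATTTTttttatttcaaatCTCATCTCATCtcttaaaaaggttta
RPA135, chrXVI:581280-581346, minus strand: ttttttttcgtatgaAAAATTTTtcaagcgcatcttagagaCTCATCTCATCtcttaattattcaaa
RPA49, chrXIV:182718-182768, minus strand: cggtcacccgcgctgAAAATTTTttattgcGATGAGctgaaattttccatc
RPA43, chrXV:960316-960379, minus strand: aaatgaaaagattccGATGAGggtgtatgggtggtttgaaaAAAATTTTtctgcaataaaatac
RPA34, chrX:140201-140347, plus strand: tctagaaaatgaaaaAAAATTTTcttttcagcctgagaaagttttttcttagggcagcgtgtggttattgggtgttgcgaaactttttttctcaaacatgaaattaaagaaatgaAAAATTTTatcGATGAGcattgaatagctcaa
RPC40, chrXVI:746898-746957, minus strand: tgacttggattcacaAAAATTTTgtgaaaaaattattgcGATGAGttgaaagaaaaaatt
RPC19, chrXIV:412629-412664, plus strand: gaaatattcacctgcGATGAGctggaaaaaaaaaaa
RPC53, chrIV:183073-183172, plus strand: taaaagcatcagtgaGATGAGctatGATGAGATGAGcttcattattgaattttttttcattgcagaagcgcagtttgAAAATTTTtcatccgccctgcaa
TFC3, chrI:151287-151366, minus strand: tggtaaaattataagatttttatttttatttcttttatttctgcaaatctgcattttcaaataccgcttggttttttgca
RPA190 and RPA43 are divergent neighbours, and 804 bases separate their start codons.

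The motifs were unevenly spread over the complexes. The PAC core was found upstream of 6 of 7 Pol I-specific subunits, 2 of 2 subunits shared by Pol I and Pol III, 8 of 10 Pol III-specific subunits and the Pol I initiation factor RRN3. It was found upstream of 0 of 4 subunits shared by Pol I, II and III, 1 of 6 TFIIIC genes (TFC6), 0 of 2 TFIIIB genes and not of MAF1, the repressor of Pol III. Of 7 Pol II-specific subunits 0 held it. The longer form GCGATGAG, which contains the core, was present in 7 of 40 (17.5%), against 4.04% of all. A match is a description of letters, and its absence says only that the letters are not in this window.

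**Figure D1:**
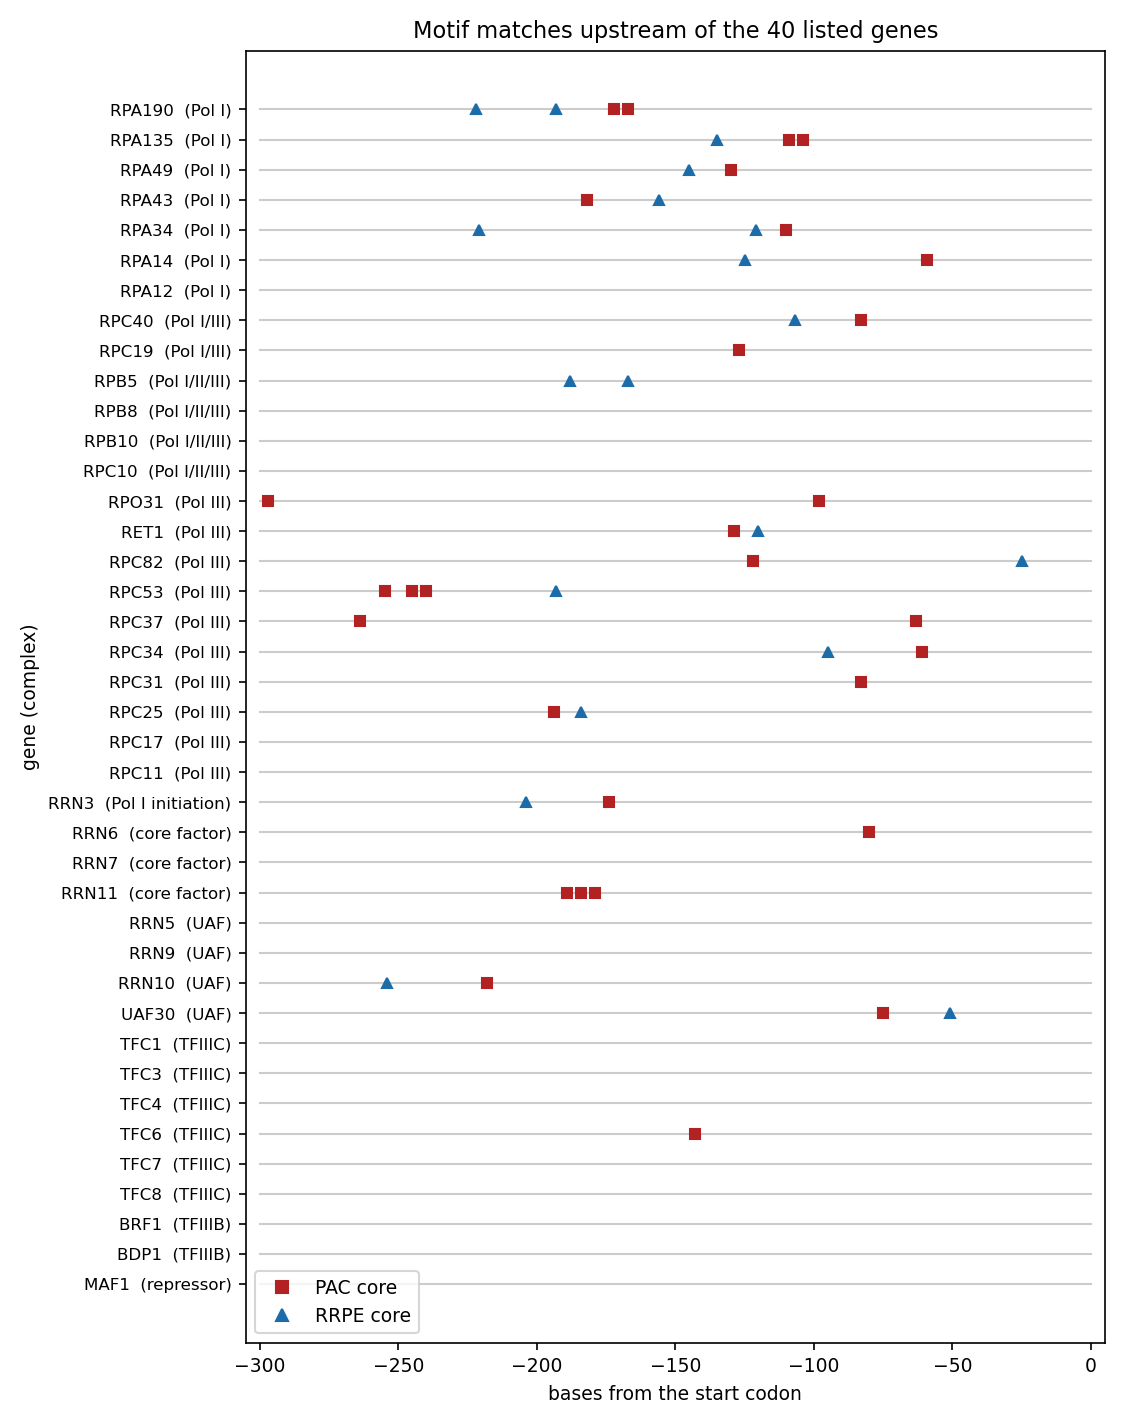
Positions of the PAC core (squares) and the RRPE core (triangles) in the 300 bases before the start codon of the 40 listed genes, ordered by complex; the x axis gives bases from the start codon and each grey line is 1 gene. Matches crowd in the rows of Pol I and Pol III subunits, and the TFIIIC, TFIIIB and MAF1 rows hold 1 match in all.

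Levels differed between experiments before any drug was added, so each comparison carried a term for the experiment. For RPA135, the second-largest Pol I subunit, the drug-free values were 9.16 and 12.1 in LM. They were 27.99 in MR, 28.99 and 34.48 in CM, 29.39 and 31.97 in LR, 25.95 and 44.4 in CR, and 36.27 and 62.01 in CL. LM was lowest and CL held the highest value, 62.01, in a well with a final OD600 of 1.39. The other CL well, at OD600 0.67, had 36.27, still above the LM wells. In CR the value was 44.4 at OD600 1.44 and 25.95 at 0.78. In LR the order was reversed, with 29.39 at 1.38 and 31.97 at 0.63. CM, LM and MR had no drug-free well that dense, so part of the spread between experiments may go with density, which was not tested here. For RPA34, which pairs with RPA49 on Pol I, the drug-free values were 17.6 and 20.3 in LM and 64.4 and 71.7 in CL, with those of the other experiments between 17.9 and 45.4. For TFC3, the largest TFIIIC subunit and part of its DNA-binding half-complex, the order was not the same, with 54.9 and 68.4 in LM and 40.8 and 47.4 in CL.

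At growth held near the same reduced rate, cycloheximide and rapamycin left no member called, LiCl raised 2 and myriocin raised 4 and lowered 1. A gene was called where its adjusted p was under 0.05 over all 5015 features and its fitted change was at least 1.5-fold, and changes are on the log2(value + 1) scale with their standard error. The median change of the 32 members was 0.02 with cycloheximide, 0.19 with LiCl, 0.31 with myriocin and -0.04 with rapamycin. Over all features those medians were -0.04, -0.02, -0.01 and -0.05. The 4 comparisons share the 11 drug-free libraries.

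With cycloheximide, 0 of 32 members were called (2.37% of all features in either direction), and 2 had an unadjusted p under 0.05. Fitted changes ran from -0.29 for TFC3 to 0.69 for RPC53, of the dimer of Pol III that acts in termination. RPA190, the largest Pol I subunit, had 10.9, 20.5 and 41.5 as its lowest, median and highest drug-free value and 19.1, 26.8 and 48.3 with cycloheximide. The groups overlapped, and its change was 0.27 ± 0.259 (adjusted p = 0.648). Without the 8 shallow libraries 2 members were called higher, and the share of all features was not recorded for that run.

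With LiCl, RPA135 and RPC53 rose (4.29% of all features were called higher) and 0 members fell. RPA135 had 20.2, 44.5 and 135.6 as its lowest, median and highest value with LiCl. Its change was 0.83 ± 0.231 (adjusted p = 0.00827), and the difference of mean log2 values was 1.46 in CL, 0.89 in LM and 0.46 in LR, higher in 3 of 3 experiments. In CL, its values with LiCl were 129 and 136, above the drug-free 36.27 and 62.01. RPC53 changed by 0.66 ± 0.217 (adjusted p = 0.0277), with differences of 1.14 in CL, 1.13 in LM and 0.37 in LR. Without experiment CL neither was called, at 0.63 (adjusted p = 0.138) and 0.52 (adjusted p = 0.224).

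With myriocin, 4 members rose (3.41% of all features) and 1 fell (3.37%). The 4 were RPC19, a subunit that assembles with RPC40 in both Pol I and Pol III, RPA34 and RPA49, the dimer that aids Pol I initiation and elongation, and RPC53. The member that fell was TFC3. In LM, which held 7 of the 11 libraries, RPA34 had 17.6 and 20.3 without drug and a lowest, median and highest value of 34.2, 44.2 and 87.8 with myriocin, so the groups did not overlap. RPC19 had 1.24 and 4.16 without drug against 5.90, 13.4 and 22.9, and RPC53 had 5.81 and 8.90 against 13.8, 23.7 and 35.1, again without overlap. RPA49 had 4.16 and 4.19 without drug against 2.08, 13.4 and 25.2, and here the myriocin values lay on both sides. The drug-free wells of LM were all of the lower growth-reference set (the lower ratio of absolute to relative growth). The myriocin wells were of both sets, and these raw values are not adjusted for that.

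The fitted changes were 1.22 ± 0.329 for RPC19 (adjusted p = 0.00873), 1.05 ± 0.261 for RPA34 (0.00424), 1.01 ± 0.326 for RPA49 (0.0278) and 0.98 ± 0.224 for RPC53 (0.00205). RPC19, RPA34 and RPC53 were higher with myriocin in 3 of 3 experiments, by 0.36 to 2.05 log2 units. RPA49 was higher in LM (1.16) and MR (1.25), and the single CM library was lower than its drug-free wells (-0.26). The differences within experiments, here and for LiCl, compare raw means without a term for the reference set. TFC3 changed by -0.67 ± 0.156 (adjusted p = 0.00226) and was lower in 3 of 3 experiments, by -0.77 in CM, -0.61 in LM and -0.66 in MR. Leaving out LM, with 7 of 11 libraries, left 0 members called, with RPC19 at 0.55 (adjusted p = 0.646), RPA34 at 0.70 (0.291), RPA49 at 0.63 (0.509), RPC53 at 0.57 (0.321) and TFC3 at -0.65 (0.0662).

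Gene length moved with the myriocin change. Over 4693 tested genes with a RefSeq length from start to stop codon, Spearman's rho between length and change was -0.35, with a median change of 0.12 for genes under 1000 bases and -0.19 for those of at least 3500 bases. Among the 32 members rho was -0.57, with a median of 0.56 for the 13 short members and -0.02 for the 4 long ones. RPC19 spans 429 bases, RPA34 702, RPA49 1248, RPC53 1269 and TFC3 3573. With each library's trend on length removed, an alternative added after seeing the data, the 4 higher calls were kept and TFC3 was at -0.53 (adjusted p = 0.016), under 1.5-fold.

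By complex, the myriocin change had a median of 0.64 over 6 Pol I-specific subunits, 0.73 over the 2 subunits shared by Pol I and III, 0.52 over the 4 shared by Pol I, II and III and 0.44 over 9 Pol III-specific subunits. It was -0.12 over 6 TFIIIC genes, 0.12 over 2 TFIIIB genes, -0.33 for MAF1 and -0.10 over 6 Pol II-specific subunits. These medians describe the list and carry no test.

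With rapamycin, 0 of 32 members were called (5.04% of all features in either direction), and 3 had an unadjusted p under 0.05. The lowest change was -0.62, for TFC1, a DNA-binding TFIIIC subunit, and RPA190 stood at -0.59 ± 0.247 (adjusted p = 0.117). RPA190 had 7.868, 11 and 37.22 as its lowest, median and highest value with rapamycin. BRF1, the TFIIIB subunit that contacts TFIIIC and Pol III, had 14.5, 23.2 and 42.6 without drug and 26.1, 31.6 and 37.9 with rapamycin. Its change of 0.55 ± 0.176 passed the p threshold (adjusted p = 0.0285) and missed 1.5-fold.

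**Figure D2:**
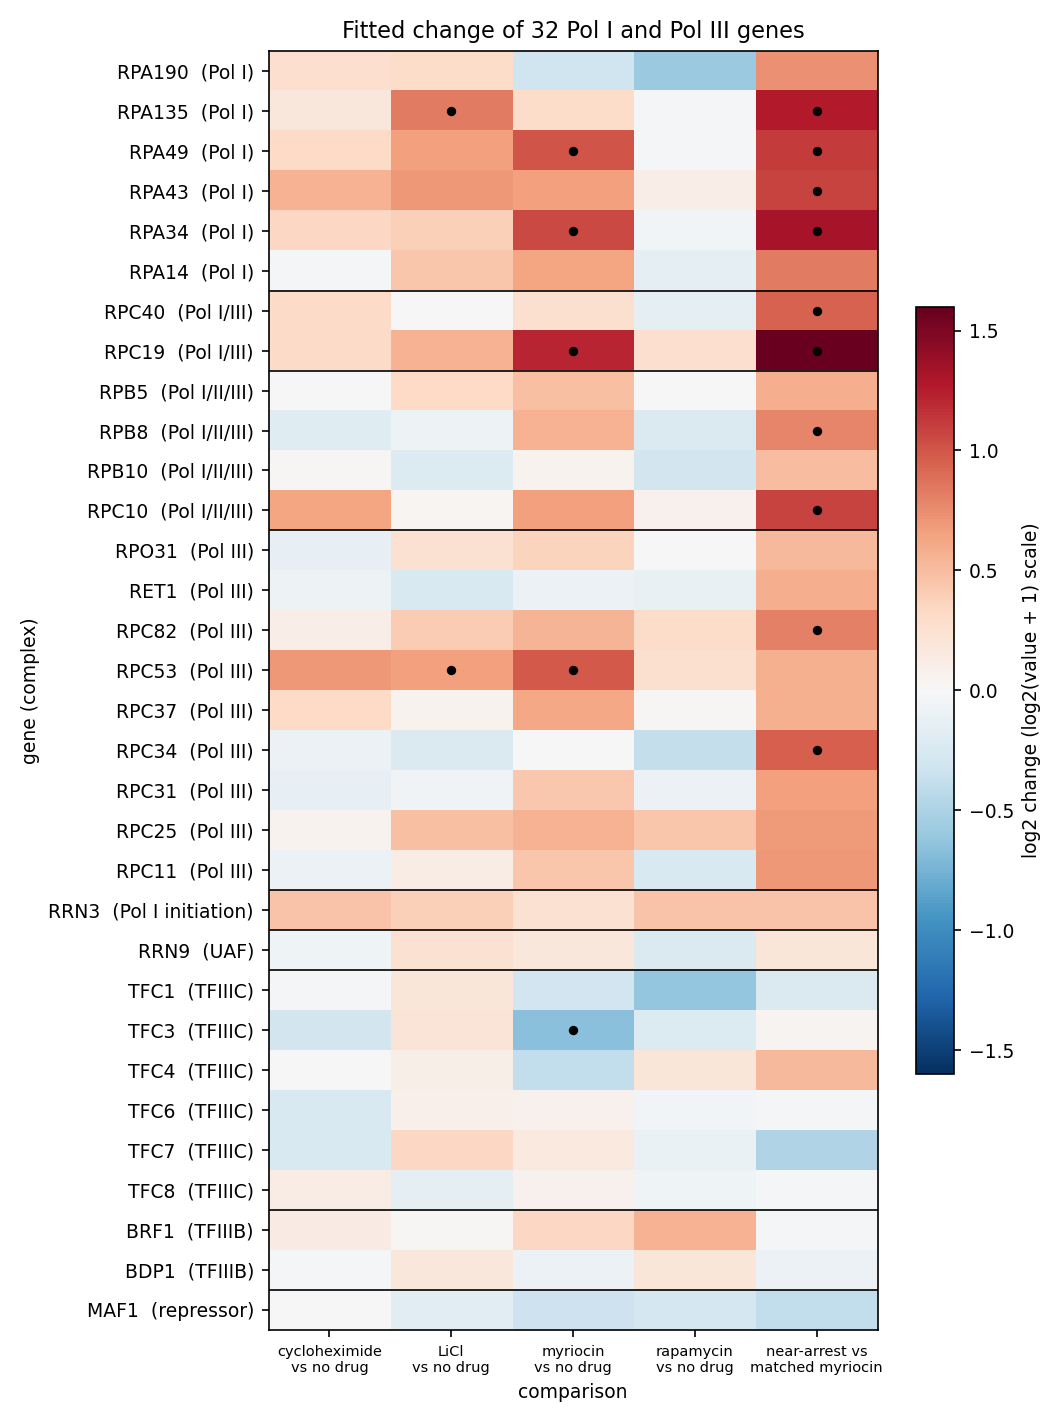
Fitted log2 change of the 32 analysed members (rows, ordered by complex) in 5 comparisons (columns); red is higher and blue lower with the drug or near arrest, and a black dot marks a called change. The last column is red down to RRN3 and pale or blue in most of the TFIIIC, TFIIIB and MAF1 rows.

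Along the myriocin doses of LM, taking libraries that grew at 0.35 or more of the drug-free rate, 5 members rose (3.45% of all features) and 1 fell (4.39%). The change is given at a relative growth of 0.5. RPA49 rose by 1.66 ± 0.521 (adjusted p = 0.036), RPC19 by 1.48 ± 0.406 (0.0162), RPA34 by 1.07 ± 0.267 (0.00954) and RPA14, a Pol I stalk subunit, by 0.89 ± 0.225 (0.0103). RPB8, a subunit shared by all nuclear polymerases, rose by 0.67 (0.0153), and TFC3 changed by -0.60 ± 0.18 (0.0284). These libraries include those of LM used in the comparison with no drug, so the calls are not separate evidence.

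RPA14 had 12.7 and 21.5 without drug and 29.2 and 44.7 at 0.510 µg/ml. Its growth-matched values ran from 16.9 to 44.7 and overlapped the drug-free ones. RPB8 went from 25.9 and 26.4 to 68.8 and 76.5 at that dose, while TFC3 went from 54.9 and 68.4 to 25.2 and 32.4. MAF1 had 54.9 and 60.2 without drug and 35.5 and 39.7 at 0.510 µg/ml, and its change of -0.56 ± 0.221 did not pass (adjusted p = 0.0942). The calls for RPC19, RPB8 and TFC3 ended when the drug-free wells were left out, at 1.19 (adjusted p = 0.0727), 0.46 (0.114) and -0.56 (0.0892).

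Near arrest, more of the polymerase subunits rose. Against growth-matched myriocin libraries 10 of 32 members rose (7.56% of all features), 0 fell (9.69%), and the median change was 0.58 over the members and -0.03 over all features. The 10 were 4 Pol I-specific subunits (RPA34, RPA135, RPA49 and RPA43), RPC19 and RPC40, RPB8 and RPC10 of all nuclear polymerases, and RPC82 and RPC34 of the Pol III initiation trimer. Within LM, RPC40 had a lowest, median and highest value of 28.1, 40.5 and 46.3 growth-matched. Its near-arrest values were 55.7, 58.3, 69.5, 77.7 and 96.3 in order of dose, without overlap. RPC19 had 28.85, 25.98, 45.92, 40.81 and 34.56 near arrest, all above its growth-matched highest of 22.9.

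RPA34 had 42.05, 78.67, 115.8, 223.3 and 186.8 near arrest in order of dose, so the 2 lowest of these doses lay within the growth-matched range and the 3 highest lay above it. RPA43, of the Pol I stalk, had 16.1, 18.2, 50.6, 65.4 and 54.9, with the 3 highest doses above the growth-matched highest of 27.5. Its call ended when any of 3 of the 5 libraries was left out (adjusted p = 0.0549 to 0.085). RPA135 had 31.02, 28.87, 23.07, 45.23 and 59.89, against 7.11, 13.7 and 33.5 growth-matched, and the groups overlapped.

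The fitted changes were 1.58 ± 0.38 for RPC19 (adjusted p = 0.00157), 1.32 ± 0.302 for RPA34 (0.00096), 1.27 ± 0.277 for RPA135 (0.000551), 1.12 ± 0.377 for RPA49 (0.0216) and 0.94 ± 0.212 for RPC40 (0.000851). RPA190 (0.73, adjusted p = 0.0592) and RPO31 (0.52, 0.135), the largest subunits of Pol I and Pol III, were not called, nor was RET1 (0.58, 0.17), the second-largest subunit of Pol III. All 9 Pol III-specific and all 6 Pol I-specific subunits analysed had a positive fitted change. The near-arrest libraries had an estimated depth of 127812 to 281769 reads against 172720 to 674338 growth-matched, and the part of depth was not tested. Restricted to LM and its lower growth-reference set, an alternative added after seeing the data, 6 of the 10 were still called.

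In this comparison rho between length and change was 0.04 over all genes and -0.38 among the members, and with the length trend removed the 10 calls were kept among 11. No TFIIIC or TFIIIB gene was called. The median change was -0.02 over the TFIIIC genes (range -0.48 to 0.52, which meets the lowest Pol III-specific subunit at 0.52) and -0.06 over the TFIIIB genes, with TFC3 at 0.04 ± 0.181, BRF1 at -0.02 ± 0.211 and MAF1 at -0.39 ± 0.23 (adjusted p = 0.891, 0.958 and 0.205). TFC7, a TFIIIC subunit, had the lowest member change, -0.48. RRN3, which brings Pol I to the promoter, was at 0.46 ± 0.361 (adjusted p = 0.36), with near-arrest values from 8.29 to 35.1.

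**Figure D3:**
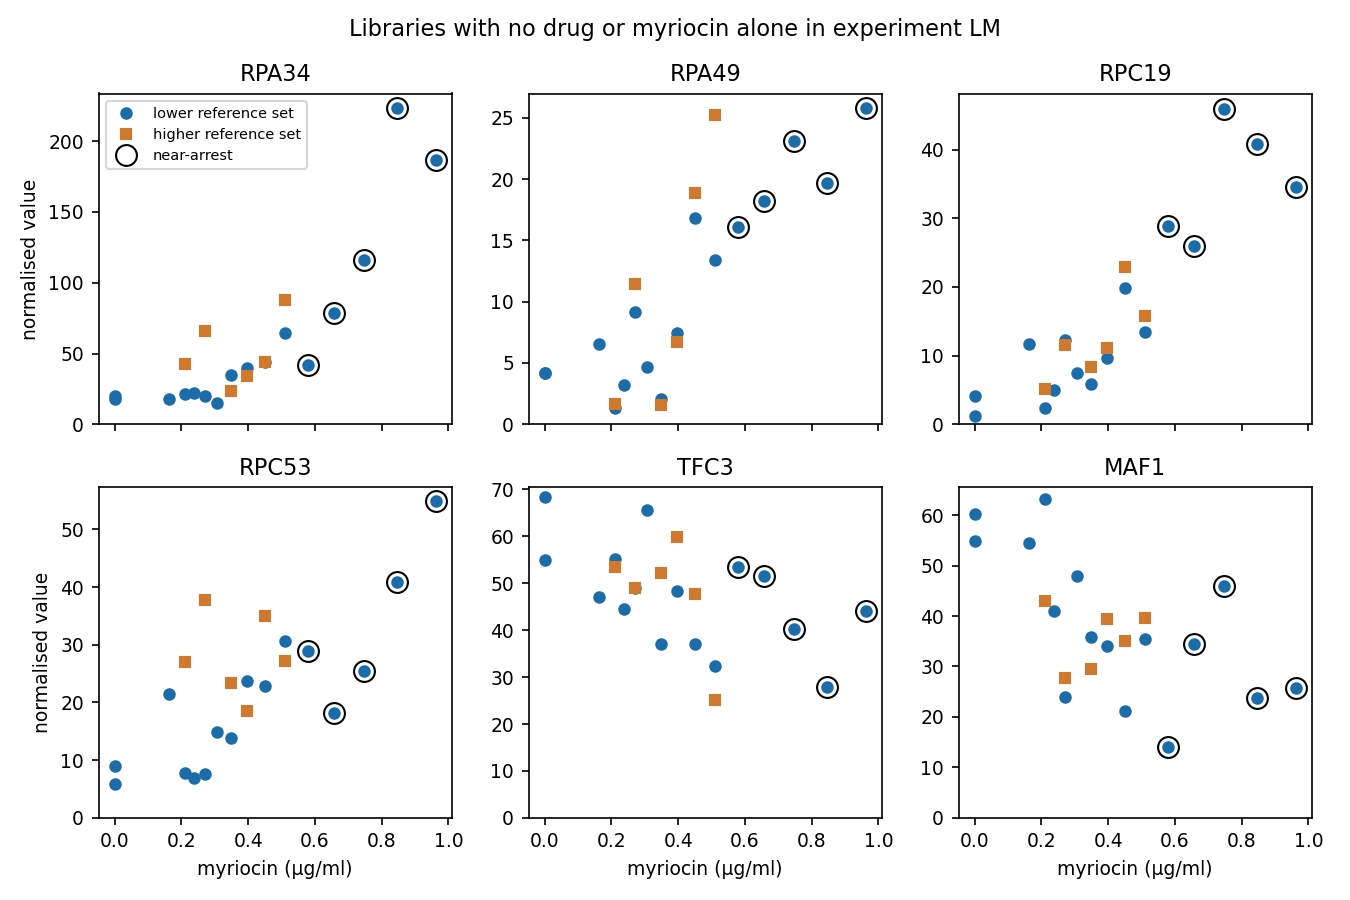
Normalised values of 6 members against myriocin dose (µg/ml) in experiment LM, each point 1 library with no drug or myriocin alone; colour and shape give the growth-reference set (the ratio of absolute to relative growth takes 2 values in an experiment) and rings mark near-arrest libraries. RPA34, RPA49 and RPC19 are highest among the near-arrest wells, RPA34 at 223.3 against 17.6 and 20.3 without drug, RPC53 scatters (gradient change 0.94, adjusted p = 0.052), and TFC3 and MAF1 lie at or below their drug-free values in most wells.

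The same myriocin doses occurred together with LiCl in wells that still grew. At 0.579 to 0.962 µg/ml, the 5 libraries without LiCl grew at 0.0358 to 0.331 and 14 libraries with LiCl grew at 0.434 to 0.522 of the drug-free rate. RPC19 had 25.98, 34.56 and 45.92 as its lowest, median and highest value without LiCl and 2.82, 11.4 and 23.1 with it. RPC40 had 55.7, 69.5 and 96.3 without and 20.2, 34.9 and 48.9 with LiCl. Neither gene's groups overlapped, whereas those of every other analysed member did. The share of all features without overlap was not counted, so RPC19 and RPC40 are not shown to be unusual. RPA34 had 42.05, 115.8 and 223.3 without and 28.36, 46.94 and 66.03 with it, and TFC3 had 27.92, 44.01 and 53.42 against 39.21, 44.68 and 60.95. The 2 sets also differed in growth-reference set and in median estimated depth, so they are given side by side with no test.

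Compared with each other at equal growth, the drugs differed in few members. Any pair of drugs shared only the experiment named for it, so these differences rest partly on the fitted experiment terms. Myriocin had 1 library in CM, shared with cycloheximide, and LiCl had 2 in LM, shared with myriocin. LiCl against cycloheximide gave 0 calls among members (4.53% of all features in either direction) and 3 unadjusted p under 0.05. RPB8 was higher with myriocin than with cycloheximide by 0.76 ± 0.237 (adjusted p = 0.0487; 1.38% of all features) and than with LiCl by 0.64 ± 0.205 (0.0174; 5.8%). TFC3 was lower with myriocin than with LiCl, at -0.87 ± 0.169 (adjusted p = 9.11e-05; 6.16%). For myriocin against LiCl rho between length and change was -0.47 over all genes. With the length trend removed RPB8 was at 0.58 (adjusted p = 0.179) and 0.36 (0.251), and TFC3 remained called. The cycloheximide group held a shallow library with RPB8 at 18.86, where the others ran from 42.77 to 79.56. Without shallow libraries the difference of RPB8 between myriocin and cycloheximide was not called.

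Rapamycin gave lower values than the other drugs in every called difference. RPA190 was lower than with cycloheximide, at -0.87 ± 0.288 (adjusted p = 0.0436; 2.59% of all features), and lower than with LiCl, at -0.88 ± 0.254 (0.00997; 4.85%). In CR, RPA190 was at 7.87 and 10.2 with rapamycin and at 19.1, 26.4 and 30.0 (lowest, median and highest of 7) with cycloheximide, without overlap. In LR it had a lowest, median and highest of 8.04, 10.1 and 29.3 with rapamycin and 17.78, 21.47 and 34.04 with LiCl, which overlapped.

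Against LiCl, rapamycin also had lower RPA135 (-0.86 ± 0.237, adjusted p = 0.00656) and TFC1 (-0.80 ± 0.234, 0.0108). TFC1 in LR ran from 2.03 to 26.2 with rapamycin and from 25.3 to 39.2 with LiCl, and without shallow libraries its difference was -0.36 (adjusted p = 0.108). Against myriocin, 5 members were lower (4.75%), namely RPA34 (-1.09 ± 0.273, adjusted p = 0.00228), RPA49 (-1.04, 0.0216), RPC19 (-0.95, 0.0415), RPB8 (-0.79, 0.00239) and RPC53 (-0.72, 0.0209). In MR, the experiment with both drugs, RPA34 was at 64.15, 71 and 81.74 with myriocin and 33.9, 44.4 and 59.7 (lowest, median and highest of 5) with rapamycin. Those groups did not overlap.

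The other dose series called no member. The share of all features called in either direction was 5.32% for cycloheximide, 6.74% for LiCl and 6.04% for rapamycin, and each series had 4 members with an unadjusted p under 0.05. Along rapamycin, MAF1 changed by -0.45 ± 0.0975, past the p threshold (adjusted p = 0.000622) and short of 1.5-fold. Along LiCl, RRN3 was at -0.63 ± 0.327 (adjusted p = 0.219) and along cycloheximide RPO31, the largest Pol III subunit, at -0.43 ± 0.203 (0.156).

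Within mixtures the ratio of the drugs varied. Relative growth varied too, least under C+L (0.456 to 0.541) and most under M+R (0.397 to 0.658), where it was 0.658 and 0.649 at the 2 lowest rapamycin shares and 0.497 and 0.488 at the 2 highest. Each dose was first divided by that drug's median growth-matched dose; the fraction of the total that belongs to the second-named drug is its dose share. Changes are given from share 0 to 1. Under C+L, 4 members rose with the LiCl share (8.45% of all features): RRN3 (0.70 ± 0.239, adjusted p = 0.0214), RPA135 (0.67 ± 0.126, 6.79e-05), RPO31 (0.63 ± 0.2, 0.0139) and TFC6 (0.61 ± 0.228, 0.0382). RPA135 had 71.9, 95.3 and 104 as lowest, median and highest at shares under 0.5 and 83.8, 111 and 132 above, with overlap. C+M and L+M gave 0 calls (6.7% and 16.5% of all features in either direction), with 0 and 6 unadjusted p under 0.05.

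Under C+R, 3 of 32 members fell with the rapamycin share, a share near the 9.99% of all features: RPA43 (-1.40 ± 0.305, adjusted p = 0.000936), MAF1 (-1 ± 0.255, 0.00415) and RPA190 (-0.86 ± 0.325, 0.0498). RPA43 was at 42.9, 39.6 and 42.4 at the 3 lowest shares and at 17.57, 25 and 12.88 at the 3 highest. At all shares under 0.5 it ran from 26.77 to 47.54, and above from 12.88 to 40.78, with overlap. RPA190 ran from 25.49 to 33.96 under 0.5 and from 13.46 to 49.37 above, also with overlap.

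Under L+R, 5 members fell (8.75%): RPA190 (-1.99 ± 0.412, adjusted p = 0.000712), RPA43 (-1.37 ± 0.425, 0.0208), RPA135 (-1.27 ± 0.385, 0.0177), TFC7 (-0.72 ± 0.255, 0.0438) and RPB5 of all nuclear polymerases (-0.62, 0.0459). RPA190 was at 29, 22.81 and 12.49 at the 3 lowest rapamycin shares and at 10.7, 8.70 and 7.51 at the 3 highest. Without the library of the lowest share RPA43 (-1.09, adjusted p = 0.0907), RPA135 (-1.14, 0.0564) and RPB5 (-0.57, 0.103) were no longer called, which left RPA190 and TFC7.

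Under M+R, 6 members fell (9.81%) and 1 rose (9.01%). RPB8 fell by 1.28 ± 0.246 (adjusted p = 0.000271), from 78.2, 69.7 and 84.6 at the 3 lowest rapamycin shares to 43.33, 51.74 and 43.97 at the 3 highest. RPA135 (-1.12 ± 0.312, 0.00844), TFC1 (-0.95 ± 0.304, 0.0221) and RPC40 (-0.94 ± 0.231, 0.00307) also fell, with RPA14 and RPB5. RRN3 rose by 1.17 ± 0.407 (adjusted p = 0.0361), from 8.498, 7.801 and 13.53 to 21.99, 23.6 and 22.4 at those shares. Its values ran from 7.801 to 30.99 at all shares under 0.5 and from 15.2 to 23.55 above, with overlap. With relative growth in the fit only RPB8 and RPC40 remained of the 7 calls. Without the library of the lowest share RRN3 was at 0.96 (adjusted p = 0.122). RPA190, which fell in the other rapamycin mixtures, was at -0.23 ± 0.388 (adjusted p = 0.711) here, and the difference between mixtures was not tested.

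**Figure D4:**
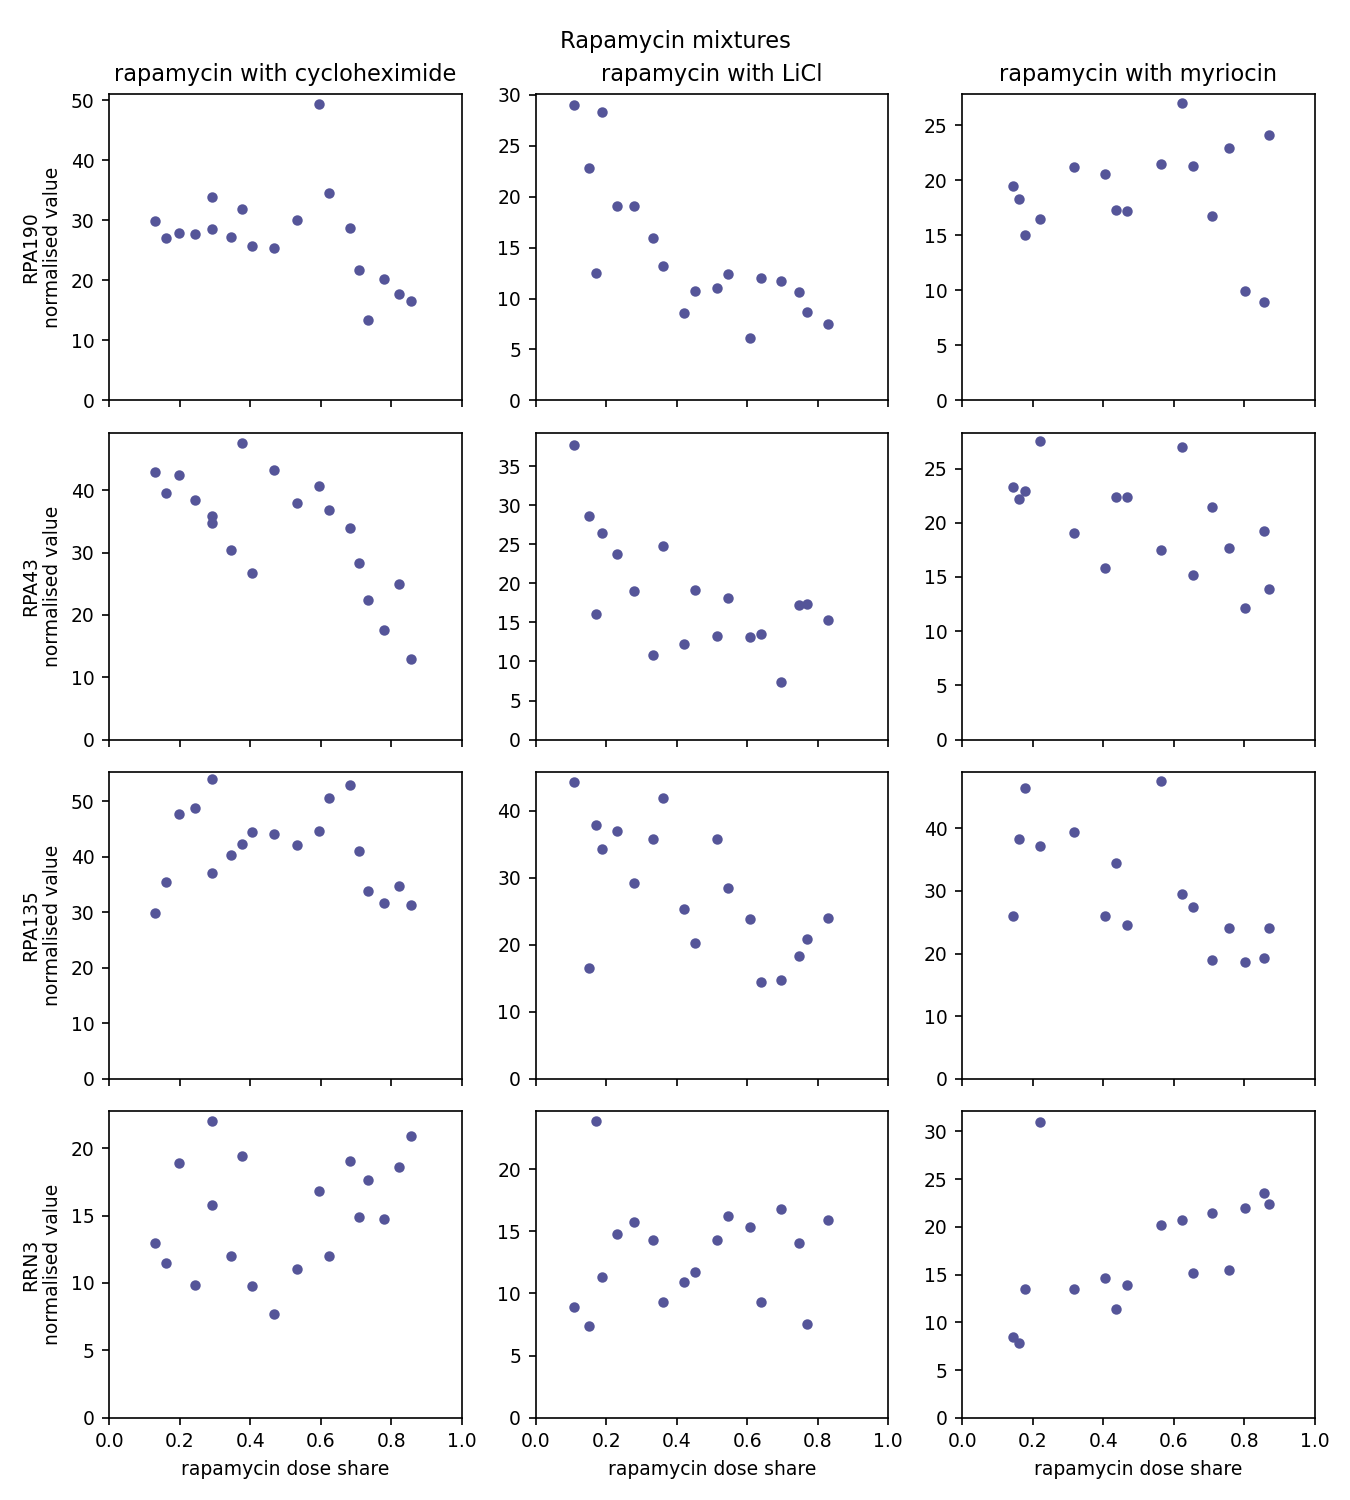
Normalised values of RPA190, RPA43, RPA135 and RRN3 (rows) against the rapamycin dose share in mixtures with cycloheximide, LiCl and myriocin (columns), each point 1 library. RPA190 goes from 29 to 7.51 across the LiCl mixtures. In the myriocin mixtures RRN3 runs from 7.801 to 30.99 at rapamycin shares under 0.5 and from 15.2 to 23.55 above, with overlap.

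Mixtures seldom departed from the mean of their single drugs. Under C+R, RPA190 (0.60 ± 0.189, adjusted p = 0.0286) and RPA43 (0.60 ± 0.2, 0.0406) were higher than that mean (1.14% of all features). With a pseudocount of 10 neither passed 1.5-fold, at 0.40 and 0.43. Mean relative growth was 0.439 under C+R, 0.533 with growth-matched cycloheximide and 0.506 with growth-matched rapamycin. The fit held no growth term, so the part of growth was not tested. The other pairs gave 0 calls among members, beside 0.16% of all features for C+L, 1.02% for C+M, 2.39% for L+M, 0.259% for L+R and 0% for M+R. Unadjusted p under 0.05 numbered 3, 4, 2, 6 and 1 members in that order.

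Other genes of these pathways were tested from a list of 29, of which 24 passed the mean of 10. With growth-matched myriocin 1 of 10 further Pol I and III transcription factors rose, LHP1 (0.60, adjusted p = 0.0204), which binds the ends of new Pol III transcripts (3.41% of all features rose), and 1 fell (3.37%), REB1 (-0.97, 0.0455), which binds near the end of the ribosomal RNA genes. Of 6 Pol II-specific subunits, RPO21, the largest, fell (-0.71, 0.00601). Near arrest 1 of the 10 further factors rose (7.56% of all features), RPO26, a subunit of all nuclear polymerases (0.80, 0.000473). Of 8 upstream regulators 1 fell (9.69%), STB3 (-1.05, 0.0169). Along the rapamycin share of L+R, where 8.75% of all features fell, 3 of 6 Pol II-specific subunits fell, RPO21 (-0.95), RPB3 (-0.87) and RPB4 (-0.70), as did 2 of the 10 further factors, NET1 (-1.18) and CKA1 (-0.78), and 1 of 8 regulators, DOT6 (-0.80, adjusted p = 0.0393).

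Members of the polymerases varied together over the 238 libraries. The median Pearson's r between log2 values was 0.617 over 15 pairs of Pol I-specific subunits, 0.363 over 36 pairs of Pol III-specific subunits and 0.445 between the sets, and 0.00475 over all pairs of tested genes. Pairs of TFIIIC genes had a median of 0.00157, and pairs of a Pol I-specific subunit with a TFIIIC gene -0.0688. The highest pair was RPA43 with RPA34 (0.770), and the lowest was RPA34 with TFC3 (-0.413). Libraries of 1 experiment share their drug grid and baseline. After subtracting the mean of each experiment, reference set and group, the medians were 0.290, 0.0979 and -0.0473 within Pol I, Pol III and TFIIIC. These are descriptions without a test.

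**Figure D5:**
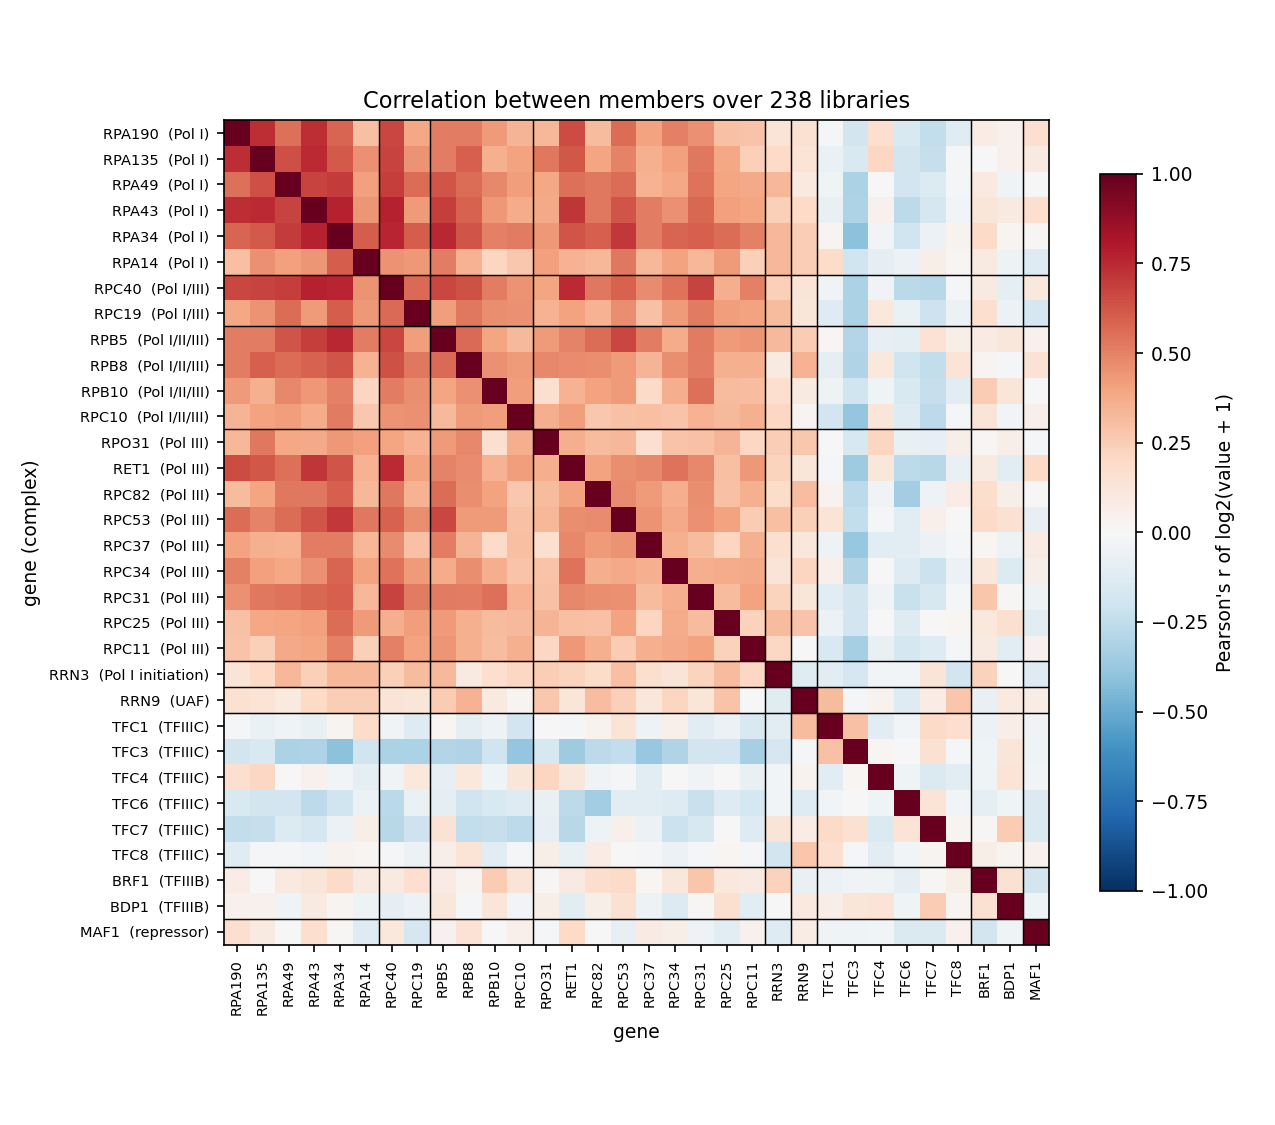
Pearson's r of log2(value + 1) between the 32 analysed members over 238 libraries, ordered by complex, red positive and blue negative. A red block runs over the subunits of Pol I, Pol III and those they share, and the TFIIIC, TFIIIB and MAF1 rows are pale or blue against it.

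Members with and without the PAC core differed in median change under myriocin, and also under LiCl and cycloheximide, with overlapping ranges. The 18 analysed members with it had a median change of 0.49 against no drug and 0.77 near arrest, and the 14 without it had 0.11 in each. Over 869 other genes with the PAC core those medians were 0.08 and 0.14, and over 3787 without it -0.04 and -0.07. Against no drug, the myriocin changes ran from -0.32 to 1.22 in members with the motif and from -0.67 to 0.66 in those without. The members' medians with and without it were 0.38 and 0.10 for LiCl and 0.23 and -0.01 for cycloheximide. With rapamycin against no drug the members' medians were -0.03 with and -0.17 without the motif. The subunits shared by Pol I, II and III, which lack the letters, had medians of 0.52 and 0.68 in the myriocin comparisons. No test was made of these groupings, in which the complexes are unevenly represented.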

How the data were processed

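Poly(A) RNA of 238 yeast wells was sequenced from the 3′ end with molecular identifiers, per the labels' protocols. TopHat, UMI-tools and featureCounts were used with genome build R64, versions unstated, per the submitters' processing notes; the strand setting is not given in the sources used here. The authors deposited 1 table of normalised signal per gene: every column had the same largest value (17026.2), and values times 239 were whole within 0.01 for 77.2%, the pattern of quantile normalisation, read from the values and not stated. Depth was estimated from tied values and gives no interval. These are not counts, so the planned edgeR branch was not used and limma 3.58.1 in R 4.3.3 (trended) was fitted to log2(value + 1) over 5015 features with a mean of at least 10, with terms for experiment and growth-reference set, and Benjamini-Hochberg adjustment. Calls needed adjusted p under 0.05 and 1.5-fold. The scripts were tested on simulated data. Full values were given for RPA190, RPA135, RPO31, RET1, RPC40, RPC19, RRN3, BRF1, TFC3 and MAF1, and in each comparison for up to 4 called members per direction with the largest change; others are summarised. Members and lists were chosen with earlier results of these data known. Growth groups came from the labelled growth rates. Alternatives covered pseudocount, filters, shallow libraries, covariates, left-out libraries and gene length. Upstream windows were read from the RefSeq R64 genome. RPA14 overlaps an annotated gene, and its reads may not be separable from that partner's. TFC3 overlaps none but ends 62 bases from the convergent gene VPS8. With the strand setting not given, its reads may not be fully separable either.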

Additional observations from a re-analysis of the deposited data

Results flagged for a closer look

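In 92 combinations of a group and a member, 5 had 1 library far from the rest by Dixon's criterion, which chance gives in about 1 of 20 groups. RPO31 had a lowest value of 4.937 with growth-matched LiCl, where the others ran from 14.98 to 38.29. One shallow cycloheximide library of experiment CR (87091 estimated reads) held 3 of these values: RPB8 at 18.86 (others 42.77 to 79.56), RPB5 at 33.91 (others 58.1 to 99.5) and RPA14 at 47.76 (others 23.61 to 31.09). RRN3 had a lowest value of 3.178 with weaker myriocin (others 7.975 to 16.12).

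At equal growth, 12 differences between drugs passed the limma test and 1.5-fold. RPB8 was higher with myriocin than with cycloheximide (0.76) and LiCl (0.64), and the call against cycloheximide was lost without shallow libraries. TFC3 was lower with myriocin than with LiCl (-0.87). With rapamycin, RPA190 was lower than with cycloheximide (-0.87) and LiCl (-0.88), and RPA135 (-0.86) and TFC1 (-0.80) were lower than with LiCl. Against myriocin, rapamycin had lower RPA34 (-1.09), RPA49 (-1.04), RPC19 (-0.95), RPB8 (-0.79) and RPC53 (-0.72).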

How the results depend on the processing

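No called change of a single member reversed under any alternative run. The members' median changed sign in 10 cases, all with main medians between -0.07 and 0.15. Recomputed counts of called members stayed within 1.5 times the main count in 150 cases and left it in 54. The share of all features called was not recorded for the alternative runs. Their counts therefore do not tell a change of the members from a change across all features. Recomputed single calls were kept in 326 cases and lost in 109. The cause was not tested except where a setting itself uses fewer libraries or a larger pseudocount. Against no drug, cycloheximide (0) gave 2 without shallow libraries. LiCl (2) gave 1 with a pseudocount of 10, 4 without shallow libraries, 1 without the experiment term, 1 with drug-free wells below OD600 0.9, and 0, 1 and 4 without CL, LM and LR. Myriocin (5) gave 3, 8 and 1 under the first 3 of those settings and 0 without LM. Rapamycin (0) gave 1 by adjusted p alone, 1 without shallow libraries and 1 with drug-free wells of low OD600.

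Between drugs, LiCl against cycloheximide (0) gave 1 without shallow libraries. Myriocin against cycloheximide (1) gave 0 with no filter, 0 without shallow libraries, 2, both lower, without the experiment term and 0 with the length trend removed. Rapamycin against cycloheximide (1) gave 0 with a pseudocount of 10, 0 with no filter and 4 without shallow libraries. Myriocin against LiCl (2) gave 1 with a pseudocount of 10, 7 without shallow libraries, and 1 with the length trend removed. Rapamycin against LiCl (3) gave 5 by adjusted p alone and 1 with a pseudocount of 10. Rapamycin against myriocin (5) gave 2 with that pseudocount, 9 without shallow libraries and 1, higher, without the experiment term.

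Near arrest (10) gave 2 without the experiment term and 6 within LM and its lower set, and 8 to 14 when 1 near-arrest library was left out. For mixtures against the mean, the fit without the experiment term gave 18 for C+L, 3 for C+M, 0 for C+R (2) and 1 for L+M, and moved the members' median to 0.64 (C+L) and -0.16 (L+M). C+R also gave 4 by adjusted p alone, 0 with a pseudocount of 10, 1 with no filter and 1 without shallow libraries. The gradients gave 1 and 1 for cycloheximide (0), without shallow libraries and without drug-free wells, 3 for LiCl (0) without shallow libraries, and 2 for rapamycin (0) by adjusted p alone. The myriocin gradient (6) gave 12 with OD600 in place of the reference set, 3 without drug-free wells and 17 with near-arrest libraries included. Dose shares gave 9 by adjusted p alone, 1 with a pseudocount of 10 and 2 with the length trend removed for C+L (4), 2 with that trend removed for L+M (0), 2 without the lowest share for L+R (5) and 2 with relative growth for M+R (7). The length trend, the left-out experiments, the left-out shares and the LM restriction were chosen after seeing the data. No paired analysis was possible because replicate numbers follow accession order. Few reads per gene limit what can be detected for the lower members.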
